A study of Mus musculus with 20 samples.

Results

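Erythroblasts labelled orthochromatic (stage IV) from mice lacking both mDia1 and miR-146a (DKO) were compared with those from double wild-type mice (DWT). The 4 arrays titled DKO-IV or DWT-IV were taken, 2 per genotype, out of 20 arrays in the series, and all 19572 probe sets that carried 1 gene symbol were compared. DWT-IV replicate 1 came from a male and DWT-IV replicate 2 from a female, whereas both DKO-IV arrays came from females. Every mouse was labelled healthy, 1 year old and of C57BL/6 background. Each group held 2 mice per the series' design, so sex is not balanced between the genotypes. The labels give neither the way the genes were deleted nor the way stage IV cells were isolated, and the stated culture with erythropoietin belongs to other arrays of the series. RNA came from a very small input that was amplified with a Pico kit, without technical replicates. Each value below is a log2 signal, on which a difference of 1 is a factor of 2. Replicates 1 and 2 are given in that order, and n = 2 arrays per group throughout.

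Orthochromatic erythroblasts are the last nucleated red cell precursors: they hold most of their haemoglobin, have condensed nuclei, and expel the nucleus to become reticulocytes. mDia1, encoded by Diaph1, is a formin that nucleates actin filaments and acts in cytokinesis, adhesion and migration. miR-146a is a microRNA that lowers Traf6 and Irak1, adaptors of Toll-like and interleukin 1 receptors, and so restrains NF-kB signalling in blood cells. No named probe set measured miR-146a, so its loss could be seen only through other genes. Its mature strand is shown because it is one of the 2 deleted products, with miR-146b, its paralogue on another chromosome, which has the same seed. Sequences are RefSeq's (GRCm38.p6), read 5′ to 3′, and capitals mark the seed, bases 2 to 8.
mmu-miR-146a-5p, chr11:43374435-43374456, minus strand: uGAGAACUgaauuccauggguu
mmu-miR-146b-5p, chr19:46342790-46342811, plus strand: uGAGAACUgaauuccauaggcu
Of 1738 mature mouse sequences in that table these 2 held this seed, and the pair differed at positions 18 and 21, outside it.

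Background was set in each array at the 95th percentile of its 23 background probes, and 34.9% to 43.0% of the named features exceeded it. Across genes the 2 DWT-IV arrays correlated at r = 0.980 and the 2 DKO-IV arrays at 0.981, while pairs across genotypes ranged from 0.962 to 0.978. The female DWT-IV replicate 2 lay nearer to the DKO-IV arrays (0.978 and 0.970) than the male DWT-IV replicate 1 did (0.967 and 0.962). The Y-linked gene Uty read 10.98 in DWT-IV replicate 1 and 3.94 to 4.35 in the others, as labelled. The array DKO-I replicate 2, of an earlier stage, had the lowest median of positive controls (10.04, against 10.81 to 11.48 elsewhere), and it entered the estimate of spread used here. The 9 measured late erythroid markers averaged 16.66 and 16.35 in DWT-IV, against 14.30 and 14.33 in stage I of the same genotype, and all 9 lay above background in all 4 stage IV arrays. Genes of G2 and mitosis averaged 14.42 and 14.59 in DWT-IV and 12.91 and 12.72 in DWT-I, so the samples labelled orthochromatic carried strong transcripts of division. Neutrophil markers averaged 15.88 and 16.08 in DWT-I and 8.20 and 10.10 in DWT-IV. Their part in these 2 contrasts with stage I was not tested.

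The targeted gene was examined first. Diaph1 read 9.69 and 9.29 in DWT-IV, and 7.22 and 6.87 in DKO-IV, where both arrays lay under background. The groups did not overlap, and the log2 difference was -2.44 ± 0.42 (SE), or -1.87 against the background level, with an adjusted p of 0.100. Diaph1 therefore did not pass at stage IV, although it fell by 3.45 at stage II+III (adjusted p = 0.0093) and fell by 3.77 at stage I (adjusted p = 0.0054). Without DKO-I replicate 2 the adjusted p at stage IV was 0.0448 with the same difference. The position of this probe set relative to the deletion is not given in the sources used here.

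Between the genotypes 9 genes passed, that is 0.046% of those tested, 4 higher (0.0204%) and 5 lower (0.0255%) in DKO-IV. The genes that rose were Fcgr4, Il1f9, Tmem176b and Spi1, and those that fell were Fcna, Cacna1g, Runx1t1, Pcx and Lrrc56. An unadjusted p under 0.05 was reached by 1588 probe sets, or 8.11%. The median difference of all named probe sets was -0.018, with a 5th percentile of -0.779 and a 95th percentile of 1.007. In the 4 stage IV arrays alone 0 passed in limma, where 2 residual degrees of freedom remained and 2686 had an unadjusted p under 0.05.

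Fcgr4, an activating receptor for IgG of mouse monocytes, macrophages and neutrophils, showed the largest difference among the 9. It read 6.89 and 6.63 in DWT-IV, both under background, and 12.83 and 14.72 in DKO-IV. The rise was 7.01 ± 0.94 (adjusted p = 0.0444), at least 6.46 against background. The other low-affinity Fc receptors for IgG were less apart: Fcgr3 read 10.47 and 11.05 against 12.68 and 11.27 (1.22, adjusted p = 0.599), and the inhibitory Fcgr2b 8.44 and 8.62 against 10.19 and 9.66 (1.39, adjusted p = 0.366).

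Il1f9, which encodes the proinflammatory cytokine interleukin 36 gamma, read 5.62 and 5.33 in DWT-IV, under background, and 10.08 and 9.30 in DKO-IV. It rose by 4.22 ± 0.45 (adjusted p = 0.0191), at least 2.37. Spi1, which encodes PU.1, an ETS factor that drives myeloid and B cell fates and opposes GATA1 in red cell precursors, read 11.27 and 12.23 against 14.35 and 14.74. It rose by 2.80 ± 0.38 (adjusted p = 0.0444), and all 4 arrays lay above background. Tmem176b, a membrane protein studied in dendritic cells, read 9.13 and 10.17 against 13.32 and 13.75 and rose by 3.88 ± 0.52 (adjusted p = 0.0444). Its paralogue Tmem176a read 6.80 and 7.96 against 10.57 and 10.93 (3.37, adjusted p = 0.139). For both Spi1 and Tmem176b the female DWT-IV replicate 2 was the higher wild-type array.

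Fcna, which encodes ficolin A, a lectin that starts the complement lectin pathway and is made by macrophages in mice, fell furthest. It read 9.91 and 9.65 in DWT-IV and 5.79 and 5.49 in DKO-IV, under background. The decrease was -4.14 ± 0.49 (adjusted p = 0.0221), or -2.16 against background. Runx1t1, a transcriptional corepressor known as the fusion partner of RUNX1 in human leukaemia, read 10.85 and 9.92 against 6.89 and 5.97. It fell by 3.95 ± 0.44 (adjusted p = 0.0191), or by 2.76 against background.

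The other genes that fell are an ion channel, a mitochondrial enzyme and a leucine-rich repeat protein. Cacna1g, a T-type calcium channel subunit, read 11.83 and 12.03 in DWT-IV and 8.63 and 7.21 in DKO-IV, and it fell by 4.01 ± 0.55 (adjusted p = 0.0451). Pcx, pyruvate carboxylase, which turns pyruvate into oxaloacetate, read 10.87 and 10.25 against 7.86 and 7.40 and fell by 2.93 ± 0.34 (adjusted p = 0.0191). For Cacna1g and Pcx 1 of the 2 DKO-IV arrays lay under background, so no bound is given. Lrrc56 read 9.50 and 9.11 against 6.50 and 6.38 and fell by 2.86 ± 0.33 (adjusted p = 0.0191), or by 1.69 against background.

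**Figure D1:**
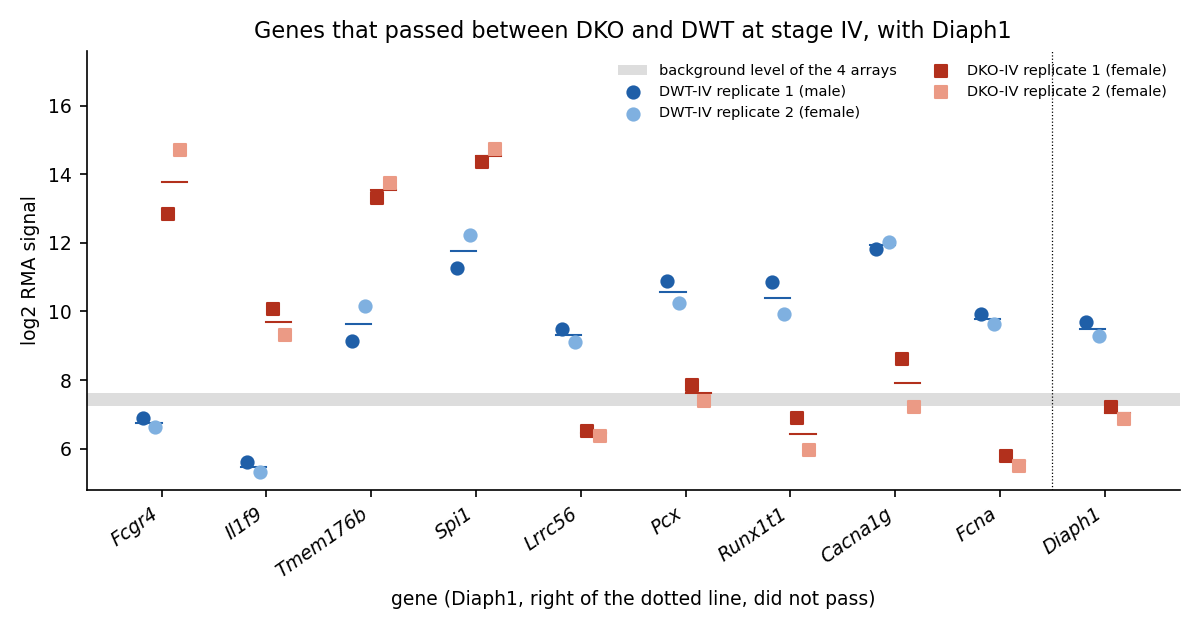
Log2 RMA signal of the 9 genes that passed and of Diaph1 in the 4 stage IV arrays. Points are arrays, short lines are group means, and the grey band spans the background levels of the 4 arrays; Fcgr4 and Il1f9 lie below the band in both DWT-IV arrays, and Fcna, Runx1t1, Lrrc56 and Diaph1 below it in both DKO-IV arrays.

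Each of the 9 passed in 7 to 11 of 17 other settings of the fit. All kept their direction, but most settings could not reverse it. They left the stage IV group means as they were, or left out 1 array where the groups did not overlap. Only the scalings and the sex term could have reversed a direction. Leaving out a stage IV array leaves 1 array in its group, which is then assumed to vary like the other groups. The number passing was 0 without DKO-IV replicate 1, 0 without DKO-IV replicate 2 and 0 without DWT-IV replicate 1, with 1149, 948 and 942 probe sets at an unadjusted p under 0.05 in limma, and it was 25 without DWT-IV replicate 2, the female, 6 of them shared with the 9. Without DKO-I replicate 2 it was 60, which held all 9, and with sex as a covariate it was 0 (1015 at an unadjusted p under 0.05). Male and female arrays occurred together only among the DWT groups, so that covariate rests on them.

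For 3 of the 9 genes the RefSeq table held a single promoter entry, and the 250 bases before the gene start are shown, since Spi1 itself was among the genes that rose. A search covered both strands for the GATA-factor motif AGATAA, the PU.1 motif GAGGAAGT and the KLF1 motif CCACACCC, and matches, none of which overlap, are in capitals. These motifs occurred in 10.0%, 2.4% and 3.2% of the 32851 promoter windows of that length.
Fcgr4, chr1:171018676-171018925, plus strand: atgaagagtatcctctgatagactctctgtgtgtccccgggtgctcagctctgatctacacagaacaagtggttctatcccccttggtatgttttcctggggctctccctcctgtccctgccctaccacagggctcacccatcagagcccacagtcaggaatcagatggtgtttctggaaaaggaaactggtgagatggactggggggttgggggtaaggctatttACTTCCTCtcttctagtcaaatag
Il1f9, chr2:24186226-24186475, plus strand: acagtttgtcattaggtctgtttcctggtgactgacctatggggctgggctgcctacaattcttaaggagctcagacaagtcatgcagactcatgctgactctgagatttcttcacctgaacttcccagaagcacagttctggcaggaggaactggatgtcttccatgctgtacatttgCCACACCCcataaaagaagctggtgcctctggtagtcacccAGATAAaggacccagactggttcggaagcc
Fcna, chr2:25627975-25628224, minus strand: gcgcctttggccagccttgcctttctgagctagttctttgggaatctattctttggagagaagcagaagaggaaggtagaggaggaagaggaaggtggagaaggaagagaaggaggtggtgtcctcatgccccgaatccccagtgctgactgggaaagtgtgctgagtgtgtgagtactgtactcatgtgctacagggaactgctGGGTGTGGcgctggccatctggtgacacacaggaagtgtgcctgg
The Fcgr4 window held 1 PU.1 match, on the opposite strand, whose first base lay 24 bases before the start. The Il1f9 window held 1 KLF1 match, 71 bases before the start, and 1 GATA match at 30 bases, and the Fcna window held 1 KLF1 match at 45 bases. A match is a description of the letters and does not show binding.

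Markers of neutrophils read higher in both DKO-IV arrays. Of 16 measured neutrophil markers 15 had a positive difference, and the same number lay higher in both DKO-IV arrays than in both DWT-IV arrays, where 22.4% of all probe sets did so. None passed over all genes, and the median difference was 3.0, with Mpo, the peroxidase of primary granules, the 1 negative member (13.15 and 14.08 in DWT-IV, 14.70 and 10.86 in DKO-IV). S100a8, a subunit of the calprotectin of neutrophil cytosol, read 9.07 and 11.79 in DWT-IV and 15.31 and 14.76 in DKO-IV (4.60 ± 0.71, adjusted p = 0.063). The antimicrobial Camp read 8.69 and 12.42 against 15.52 and 14.74 (4.58, adjusted p = 0.20), and the granule protein Lcn2, lipocalin 2, read 8.83 and 11.84 against 14.77 and 14.15 (4.12, adjusted p = 0.17). Within the wild-type pair the female array was the higher for each of these 3 genes. Granulocyte progenitor markers gave no common direction, with 6 positive and 4 negative of 10 measured (median 0.15). They averaged 8.42 and 8.88 in DWT-IV and 9.67 and 7.85 in DKO-IV. Their median was -0.78 without DKO-IV replicate 1 and 0.95 without DKO-IV replicate 2.

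The mean over the 16 markers was 8.20 and 10.10 in DWT-IV and 12.33 and 11.56 in DKO-IV. The number above background was 9 and 14 in DWT-IV and 15 and 14 in DKO-IV. The same mean was 15.88 and 16.08 in DWT-I and 16.69 and 14.73 in DKO-I, so both genotypes carried less neutrophil signal at stage IV than at stage I. Without DWT-IV replicate 1, leaving females only, the list's median was 1.99, and without DWT-IV replicate 2 it was 4.02. In such bulk samples a larger number of cells of a type and more RNA per cell cannot be told apart. Fcgr4, Il1f9, Spi1 and Tmem176b are genes of myeloid cells and lay in the same direction as these markers, whose part in those 4 results was not tested.

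Genes of the phagocyte NADPH oxidase, which makes superoxide, lay in the same direction. All 5 measured genes had positive differences (median 1.96), 4 without overlap (22.4% of all probe sets lay higher in this way), and none passed. Cybb, the catalytic subunit, read 11.27 and 13.11 against 15.22 and 15.02 (2.93, adjusted p = 0.25). Its partner Cyba read 11.31 and 11.80 against 13.57 and 13.47 (1.96, adjusted p = 0.32), and the cytosolic subunit Ncf4 8.53 and 9.81 against 11.76 and 11.34 (2.38, adjusted p = 0.25). For all 3 the DKO-IV arrays lay above both DWT-IV arrays.

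Monocyte and macrophage markers split into 2 directions. Of 18 measured, 10 had a positive and 8 a negative difference (median 0.32), and 1 passed, Fcna. Positive differences without overlap belonged to Ms4a6d (6.40 and 4.89 against 10.03 and 11.90, 5.32, at least 3.65, adjusted p = 0.11), the receptor Csf1r (8.34 and 10.03 against 12.13 and 11.74, 2.75, adjusted p = 0.33) and Cd14, a co-receptor for lipopolysaccharide (6.85 and 6.41 against 8.71 and 9.68, 2.57, at least 1.88, adjusted p = 0.36). The complement genes C1qa and C1qb, made by resident macrophages, also had positive differences without overlap (11.02 and 10.26 against 11.72 and 13.08, 1.76, adjusted p = 0.76; 7.77 and 6.73 against 9.17 and 10.10, 2.39, adjusted p = 0.64). Negative differences belonged, among others, to the mannose receptor Mrc1, which read 12.24 and 10.79 in DWT-IV and 9.30 and 8.84 in DKO-IV (-2.45, adjusted p = 0.22). Vcam1, an adhesion molecule of the macrophages of erythroblastic islands, read 8.54 and 7.68 against 5.60 and 5.74 (-2.44, or -0.49 against background, adjusted p = 0.29). Of other macrophage receptors, Siglec1 read 7.77 and 6.61 against 5.98 and 6.08 (-1.16, adjusted p = 0.54), and Cd163 lay under background in all 4 arrays. Siglec1 was above background only in DWT-IV replicate 1. The fall of Fcna thus went with lower values of Mrc1, Vcam1 and Siglec1, but with higher values of C1qa and C1qb. Of these genes only Fcna passed, and the part of the others in its fall was not tested.

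The complement and acute phase list had a median of 1.35, with 10 of 12 measured genes positive and none passing. Above background in any stage IV array were 9 of the 12. The acute phase gene Saa3 read 6.23 and 6.08 in DWT-IV and 8.33 and 11.81 in DKO-IV (3.92, at least 2.75, adjusted p = 0.42), so the DKO-IV replicates were far apart. C3ar1, the receptor for complement fragment C3a, read 5.95 and 7.04 against 9.41 and 9.84 (3.13, at least 2.31, adjusted p = 0.57). Of 7 measured MHC class II genes 6 were positive (median 1.12), and H2-Eb1 read 9.69 and 10.47 against 13.19 and 10.95 (1.99, adjusted p = 0.61), with DKO-IV replicate 1 well above replicate 2. The median of the MHC list was 0.48 without DWT-IV replicate 1, 0.64 without DKO-IV replicate 1 and 1.81 without DKO-IV replicate 2.

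**Figure D2:**
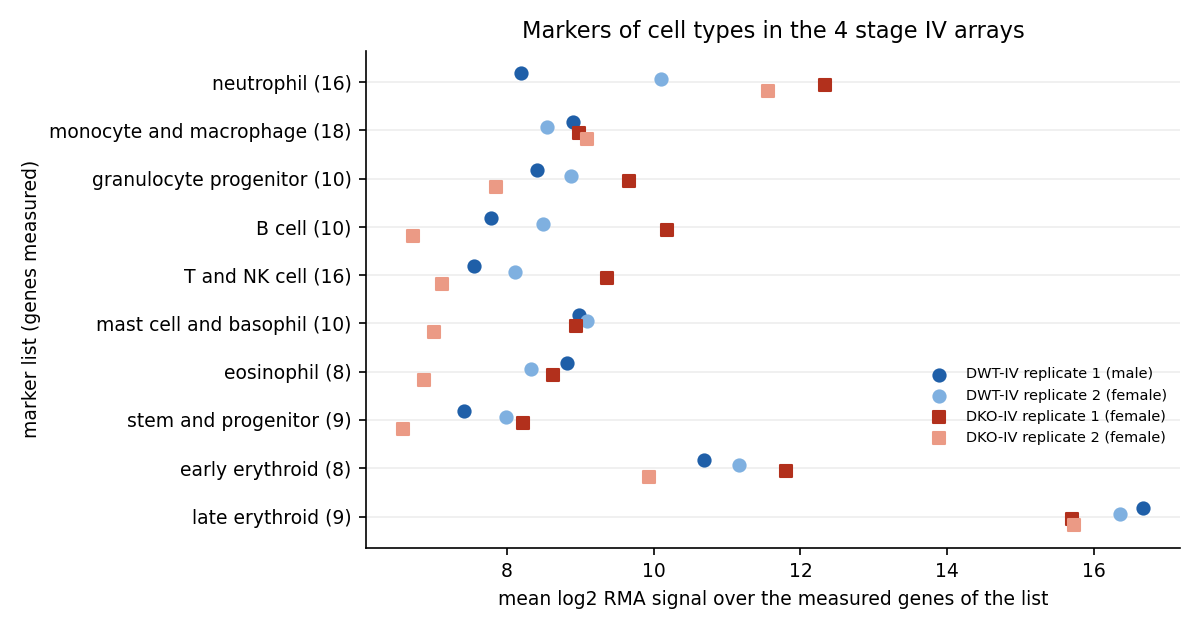
Mean log2 RMA signal of the measured genes of 10 marker lists in each of the 4 stage IV arrays, with the number of genes in brackets. Neutrophil markers average 8.20 and 10.10 in DWT-IV and 12.33 and 11.56 in DKO-IV, and DKO-IV replicate 2 lies lowest for the B cell, T and NK cell, mast cell, eosinophil and progenitor lists.

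The deletion of miR-146a raises the question of whether its targets and NF-kB genes were higher. Of 15 measured miR-146a target genes 12 had a positive difference, with a median of 0.51 (0.30 without DWT-IV replicate 1), and none passed. Only 11 of the 15 lay above background in any of the 4 stage IV arrays. Traf6, the best known target, read 7.48 and 8.27 in DWT-IV and 8.60 and 8.37 in DKO-IV (0.61 ± 0.50, adjusted p = 0.83). The histone demethylase Kdm6b read 8.76 and 10.51 against 10.85 and 11.46 (1.52, adjusted p = 0.57), and Camk2d, a calmodulin-dependent kinase, 8.31 and 9.51 against 10.49 and 10.24 (1.46, adjusted p = 0.54). Without overlap 8 of the 15 targets lay higher and 2 lower in DKO-IV, where 22.4% and 23.4% of all probe sets did. Traf6, Kdm6b and Camk2d were among the 8. Another target, Smad4, read 9.68 and 8.83 against 10.28 and 10.06 (0.92, adjusted p = 0.65).

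Of 25 measured NF-kB inflammatory genes 18 were positive (median 0.74), 17 lay higher in both DKO-IV arrays (22.4% of all probe sets did), and none passed. Only 14 of the 25 lay above background in any of the 4 arrays, so these counts include genes under background throughout. Il1b, which encodes interleukin 1 beta, came closest: it read 7.39 and 8.59 in DWT-IV and 11.26 and 11.68 in DKO-IV (3.49 ± 0.49, adjusted p = 0.0505). Nfkbiz, a nuclear regulator of NF-kB, read 7.75 and 8.84 against 10.69 and 11.96 (3.03, adjusted p = 0.24). The NF-kB subunit Rela read 9.79 and 10.82 against 11.85 and 11.46 (1.35, adjusted p = 0.44). Tnf lay under background in all 4 arrays (4.68 and 5.05 against 5.34 and 6.11). Il6 read 7.88 and 6.87 against 6.74 and 6.64, so the cytokine transcript itself was above background in 1 DWT-IV array and in neither DKO-IV array.

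Of 22 measured genes of IL-6 and STAT3 signalling 16 were positive, with a median of 0.55, and none passed. The number above background in any of the 4 stage IV arrays was 16 of the 22. Stat3, the transcription factor downstream of the IL-6 receptor, read 7.75 and 9.35 against 10.71 and 10.73 (2.17, adjusted p = 0.31). Batf, an AP-1 family factor, read 7.68 and 7.97 against 9.17 and 10.68 (2.10, adjusted p = 0.45). Lcn2 and Saa3, given above, belong to this list too. Neutrophil markers lay in the same direction as the medians of these inflammatory lists, and their part in them was not tested.

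Genes of the last steps of red cell maturation read lower in DKO-IV without passing. All 9 measured late erythroid markers had negative differences without overlap, where 23.4% of all probe sets lay lower in both DKO-IV arrays, and their median was -0.70. Beside them, the neutrophil markers averaged 8.20 and 10.10 in DWT-IV and 12.33 and 11.56 in DKO-IV, and their part in this and the following red cell lists was not tested. Trim58, a ubiquitin ligase that acts on dynein before enucleation, read 14.05 and 12.93 in DWT-IV and 11.74 and 11.54 in DKO-IV (-1.85 ± 0.62, adjusted p = 0.46). Xpo7, a nuclear exporter used in nuclear condensation, read 17.58 and 17.27 against 16.29 and 16.38 (-1.09, adjusted p = 0.75). Ube2o, which marks ribosomal proteins for removal in reticulocytes, read 15.81 and 15.30 against 14.11 and 14.35 (-1.33, adjusted p = 0.56).

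The wider list of terminal maturation, mitophagy and autophagy had 20 negative differences among 25 measured genes (median -0.39). Of these differences 14 were without overlap, where 23.4% of all probe sets lay lower in both DKO-IV arrays. The ubiquitin-conjugating enzyme Ube2h had the largest, at 15.78 and 15.12 in DWT-IV and 13.04 and 13.51 in DKO-IV (-2.18 ± 0.50, adjusted p = 0.23). Tent5c, a poly(A) polymerase, read 14.10 and 13.07 against 11.43 and 11.51 (-2.12, adjusted p = 0.29). Atg4a, a protease of autophagosome formation, read 14.31 and 13.84 against 12.82 and 12.82 (-1.25, adjusted p = 0.47). For these 3 genes the male DWT-IV replicate 1 was the highest array, and the DKO-IV arrays lay close together.

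Haem enzymes and membrane proteins, which define the red cell, also had negative medians. Of 14 measured haem synthesis genes 9 were negative (median -0.18), and Alas2, the erythroid enzyme of the first step, read 17.93 and 17.89 against 17.55 and 17.79 (-0.24, adjusted p = 0.94). Without overlap 6 of these haem genes lay lower and 3 higher in DKO-IV, where 23.4% and 22.4% of all probe sets did. Of 21 red cell membrane and skeleton genes 18 were negative (median -0.34), and without overlap 12 lay lower and 1 higher. Slc4a1, the anion exchanger band 3, read 17.86 and 17.82 against 17.51 and 17.38 (-0.39, adjusted p = 0.84). The glucose transporter Slc2a1 of the same list read higher, at 10.47 and 9.95 against 11.74 and 11.45 (1.38, adjusted p = 0.45). All 21 membrane genes lay above background in all 4 arrays.

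Among 23 erythroid regulators 15 were negative (median -0.32), and none passed. Foxo3, a factor that drives late erythroid genes and antioxidant defence, read 12.85 and 11.95 against 11.13 and 11.06 (-1.30, adjusted p = 0.42). Gata1 read 11.99 and 10.99 against 11.05 and 11.01 (-0.46, adjusted p = 0.88). Klf1 read 15.04 and 14.79 against 15.27 and 15.35 (0.39, adjusted p = 0.92), so both DKO-IV arrays of this activator of adult globin genes lay above both DWT-IV arrays.

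Iron genes gave no common direction, with 7 positive and 8 negative of 15 (median -0.03). The iron exporter ferroportin, Slc40a1, read 12.46 and 11.97 against 10.38 and 10.15 (-1.95, adjusted p = 0.27), and Hmox1, which breaks down haem, 11.28 and 10.33 against 8.73 and 9.21 (-1.83, adjusted p = 0.54). Both are also strongly expressed by macrophages that recycle red cells. Of the macrophage genes given above, Mrc1, Vcam1 and Siglec1 read lower but C1qa and C1qb read higher, and their part was not tested. Tfrc, the transferrin receptor, read 15.13 and 14.86 against 15.04 and 15.26 (0.15, adjusted p = 0.99). Erfe, the erythroblast hormone that lowers hepcidin, was in none of the lists and was picked after its value was seen: it read 8.47 and 6.75 against 10.18 and 11.41 (3.19, adjusted p = 0.15).

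Formins and partners of enucleation were examined because mDia1 is a formin. Of 24 measured genes 14 were positive and 10 negative (median 0.15), and none passed. Diaph3, which encodes mDia2, the formin needed for erythroblast cytokinesis and enucleation in mice, read 15.40 and 15.10 in DWT-IV and 15.10 and 14.99 in DKO-IV (-0.20 ± 0.52, adjusted p = 0.97). Diaph2 read 6.50 and 7.69 against 8.04 and 8.16 (1.01, adjusted p = 0.80), and the leukocyte formin Fmnl1 8.86 and 10.19 against 11.42 and 11.26 (1.82, adjusted p = 0.47). Diaph3 thus overlapped between the genotypes at the 15.10 reading, while Diaph2 and Fmnl1 did not overlap.

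Of the contractile genes, Myh10, the heavy chain of non-muscle myosin IIB, read 13.12 and 12.96 against 11.02 and 11.17 (-1.95 ± 0.53, adjusted p = 0.31). Flna, an actin crosslinker, read 7.24 and 10.40 against 11.25 and 11.31 (2.46, adjusted p = 0.50), and the DWT-IV pair differed by more than the DWT-IV replicate 2 did from DKO-IV. Flna and Fmnl1 are abundant in leukocytes, and the part of the neutrophil markers in their values was not tested.

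Genes of division had small negative medians. Of 19 measured genes of G2 and mitosis 16 were negative (median -0.20), with means of 14.42 and 14.59 in DWT-IV and 14.18 and 14.19 in DKO-IV. Without overlap 10 of these 19 genes lay lower and 0 higher in DKO-IV, where 23.4% and 22.4% of all probe sets did. DNA replication genes averaged 13.75 and 13.79 against 13.69 and 13.57, with 14 of 20 negative (median -0.15). Of these 20 genes 9 lay lower and 2 higher without overlap. The mitotic checkpoint kinase Bub1b read 12.42 and 13.15 against 11.03 and 12.02 (-1.27, adjusted p = 0.80). No gene of these lists passed. Histone and chromatin genes had a median of -0.10 over 20 genes.

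Stress genes had differences in both directions, and none passed. Chac1, a glutathione-degrading enzyme induced by ATF4, read 5.10 and 5.81 in DWT-IV, under background, and 8.88 and 7.63 in DKO-IV (2.80 ± 0.42, at least 0.93, adjusted p = 0.063). Trib3, another ATF4 target, read 8.19 and 7.46 against 10.02 and 8.90 (1.63, adjusted p = 0.42). Ppp1r15a, the phosphatase subunit that ends the integrated stress response, read 14.53 and 13.59 against 12.22 and 12.10 (-1.90, adjusted p = 0.41). The list held 14 positive of 18 measured genes (median 0.48).

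In the p53 and apoptosis list 12 of 18 measured genes were positive (median 0.33), and 14 of the 18 lay above background in any stage IV array. The cell cycle inhibitor Cdkn1a had the widest difference, 8.90 and 6.15 against 10.59 and 13.11 (4.33 ± 1.27, adjusted p = 0.37), with replicates of both groups far apart. Gadd45a, a DNA damage response gene, read 15.56 and 14.85 against 13.84 and 13.51 (-1.53, adjusted p = 0.80). Interferon response genes had a median of -0.24 over 23 genes, which was 0.23 without DKO-IV replicate 2, 0.02 without DWT-IV replicate 2 and -0.79 without DKO-IV replicate 1, so no direction is given. The antiviral gene Rsad2 read 14.09 and 13.86 against 12.34 and 11.41 (-2.10, adjusted p = 0.51). Antioxidant genes had a median of -0.19 over 20 genes.

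The 2 DKO-IV arrays differed from each other in markers of several other cell types. B cell markers averaged 7.79 and 8.49 in DWT-IV but 10.18 and 6.72 in DKO-IV, and T and NK cell markers 7.55 and 8.12 but 9.37 and 7.12. Mast cell and basophil markers averaged 8.99 and 9.09 in DWT-IV and 8.95 and 7.01 in DKO-IV, and eosinophil markers 8.82 and 8.33 against 8.63 and 6.88. DKO-IV replicate 2 was thus the lowest of the 4 arrays for each of these lists. At stage II+III DKO replicate 2 was also the lower of its pair for each. There B cell markers averaged 9.85 and 7.21, and T and NK cell markers 10.46 and 9.39. Mast cell and basophil markers averaged 9.70 and 8.28, and eosinophil markers 12.19 and 8.51. The basophil protease Prss34 read 14.71, 14.70, 13.89 and 8.87 in the order DWT-IV replicates, then DKO-IV replicates, and the pre-B cell gene Vpreb1 7.67, 7.33, 11.79 and 6.45.

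Kit, the stem cell factor receptor of early progenitors, read 11.29 and 11.62 in DWT-IV and 12.29 and 6.00 in DKO-IV (-2.31 ± 2.19, adjusted p = 0.87). Its values in 3 of the arrays were above background, although orthochromatic cells are past the stage at which Kit is used. Cd44, an adhesion molecule that declines as erythroblasts mature, read 8.71 and 8.88 against 10.41 and 10.61 (1.72, adjusted p = 0.31), and Myc 8.74 and 8.86 against 10.73 and 10.26 (1.70, adjusted p = 0.66). Early erythroid markers as a list had 4 positive and 4 negative differences. Without DKO-IV replicate 1 the median of the B cell list was -0.92 and that of the T and NK cell list -0.28, and without DKO-IV replicate 2 they were 2.30 and 1.90, so no direction is given for either.

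The same contrast at stage II+III used other arrays of the same genotypes. There 121 genes passed, or 0.618%, of which 43 rose and 78 fell (0.399%). All 9 stage IV genes had the same sign at stage II+III, and 5 also passed there in the same direction. This is not an independent repeat, because both contrasts took each gene's spread from the same fit. Sex ties the DWT arrays of both stages to the same mice, and no label names the mouse of a DKO array. Fcgr4 differed by 5.96 at stage II+III, Il1f9 by 7.43 and Fcna by -5.36. Lrrc56 lay under background in all 4 stage II+III arrays (6.92 and 6.92 in DWT, 6.13 and 6.74 in DKO). Its difference of -0.49 there (adjusted p = 0.76), and the sign of it, therefore say little. Spi1 differed by 1.31 (adjusted p = 0.21).

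The lists of red cell genes were further apart at stage II+III than at stage IV. The median of the late erythroid markers was -2.76 at stage II+III, where 4 of 9 fell, and -0.70 at stage IV. The red cell membrane list had -2.25 with 6 of 21 that fell, against -0.34, and haem synthesis -1.46 with 1 that fell, against -0.18. Alas2 read 17.79 and 17.90 in DWT-II+III, already close to its DWT-IV readings of 17.93 and 17.89. Neutrophil markers had medians of 3.06 and 3.0 at the 2 stages. They averaged 11.48 and 13.11 in DWT-II+III and 15.25 and 15.15 in DKO-II+III. Their part in the differences of the red cell lists at either stage was not tested. Trim58 read 12.15 and 11.01 in DWT-II+III and 6.61 and 7.96 in DKO-II+III, and at stage IV the DKO arrays of this gene read 11.74 and 11.54 against 14.05 and 12.93.

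**Figure D3:**
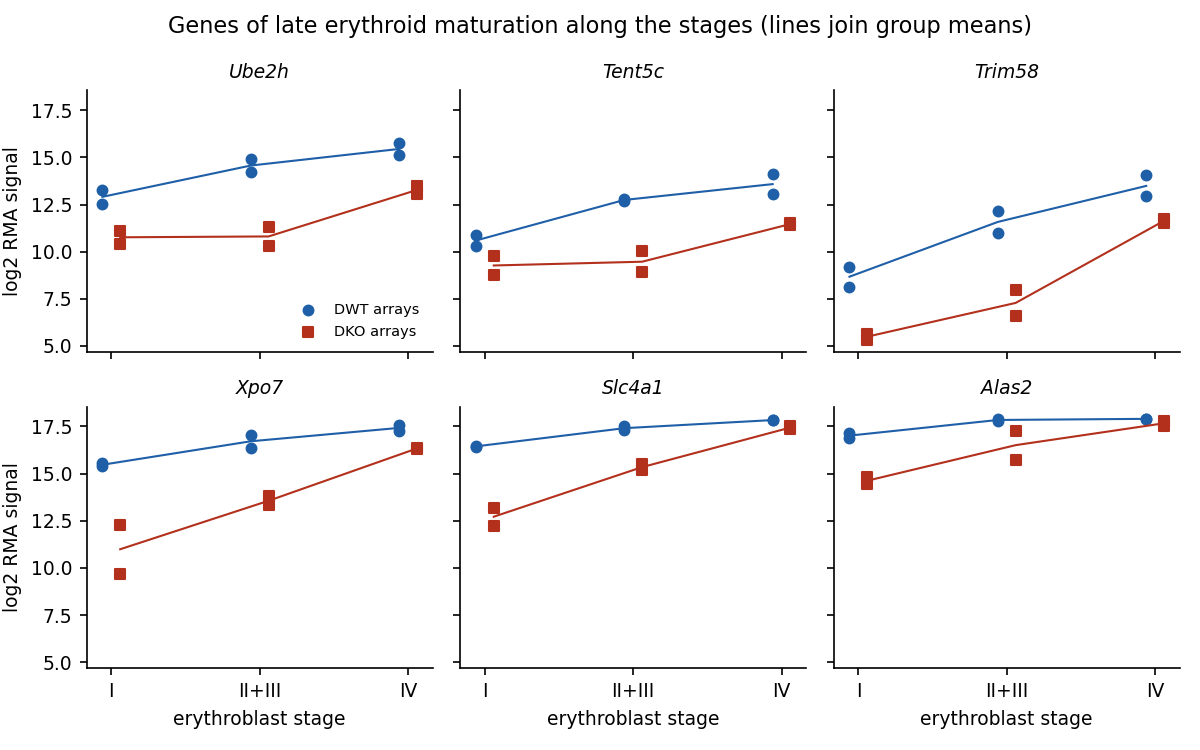
Log2 RMA signal of 6 genes of late erythroid maturation in all 12 arrays of erythroblasts from mice, by stage and genotype; points are arrays and lines join the means of 2 arrays. At stage IV Trim58 lies at 14.05 and 12.93 in DWT and 11.74 and 11.54 in DKO, whereas Alas2 lies between 17.55 and 17.93 in all 4 arrays.

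The difference between the stages was tested gene by gene, and 0 passed in limma (0% of those tested), with 662 probe sets at an unadjusted p under 0.05. Trim10, an erythroid ubiquitin ligase, differed by -0.96 at stage IV and -3.54 at stage II+III, a difference of 2.58 ± 0.55 (adjusted p = 0.99). For Il1f9 the stage IV difference minus that at stage II+III was -3.22 ± 0.64, and for Lrrc56 it was -2.37 ± 0.46 (both adjusted p = 0.87). Il1f9 lay under background in the DWT arrays of both stages, and Lrrc56 in all 4 stage II+III arrays. Chac1, at -0.21 at stage II+III, gave 3.01 ± 0.60 (adjusted p = 0.87). That value rests on readings under background in DWT-IV and in all 4 stage II+III arrays. With all 20 arrays in 1 fit 5 genes passed this test, named here after their values were seen. Ceacam10, Slfn4 and the chemokine Cxcl2 differed between genotypes by -0.16, 0.85 and 1.34 at stage IV, against 3.39, 4.09 and 4.21 at stage II+III. Fn3krp and Dmtn, the latter a protein of the red cell skeleton, differed by -0.27 and -0.06 at stage IV, against -3.25 and -3.06 at stage II+III. Ceacam10 lay under background in all 4 stage IV arrays.

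**Figure D4:**
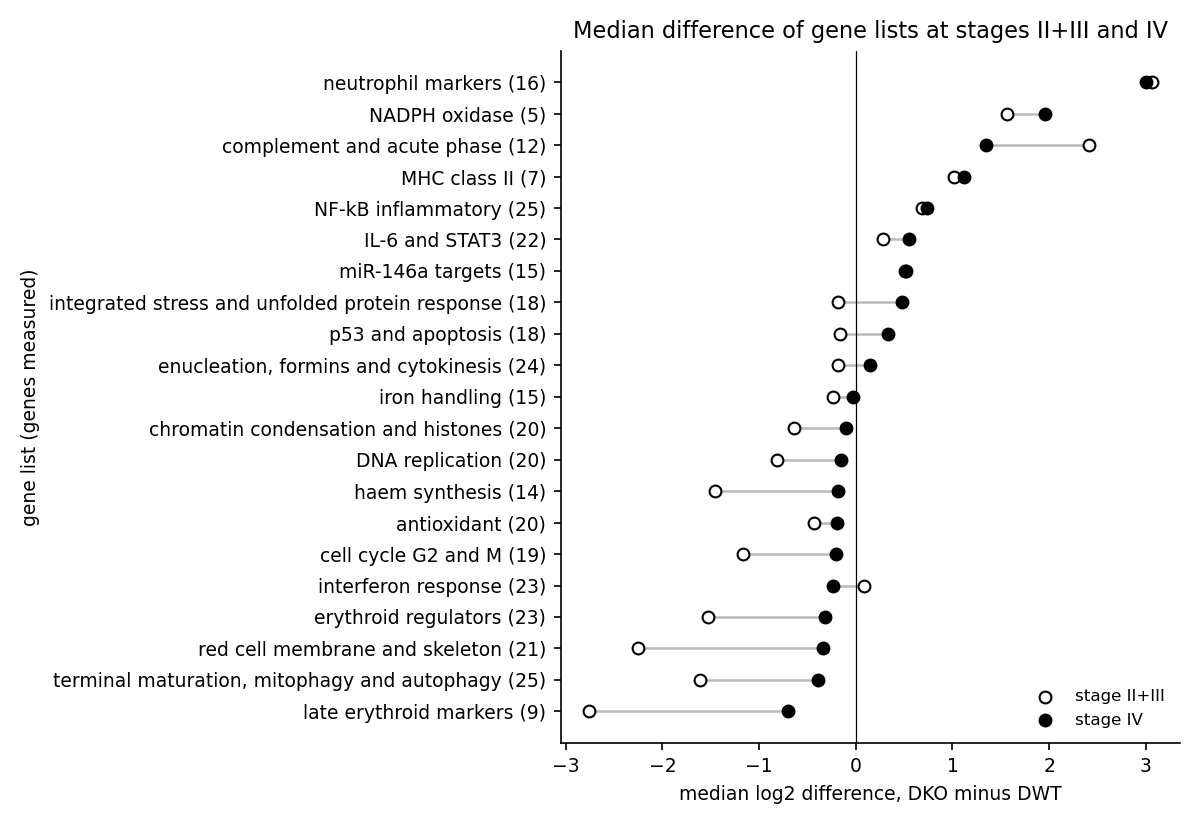
Median log2 difference between DKO and DWT over the measured genes of 21 lists at stage II+III (open circles) and stage IV (filled circles). The late erythroid markers lie at -2.76 and -0.70, and the neutrophil markers at 3.06 and 3.0.

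Among genes outside the lists, 3 that came next in order of p after the 9, above background in both arrays of at least 1 group, were chosen after their values were seen. Klf7, a Kruppel-like factor, read 7.22 and 7.31 against 9.79 and 10.17 (2.71, adjusted p = 0.063), and Cst3, the protease inhibitor cystatin C, 13.66 and 13.91 against 15.55 and 15.59 (1.79, adjusted p = 0.063). Skil, an inhibitor of SMAD signalling, read 6.10 and 5.44 against 8.32 and 9.70 (3.24, at least 1.69, adjusted p = 0.063). The scavenger receptor Cd36, lower in that order and likewise picked after its value was seen, read 15.67 and 15.22 against 13.61 and 12.62 (-2.33, adjusted p = 0.16). In each of these 4 genes both DKO-IV arrays lay on one side of both DWT-IV arrays. Klf7, Cst3 and Skil passed without DKO-I replicate 2, at differences of 2.71, 1.79 and 3.24.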

How the data were processed

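RNA of 20 samples was hybridised to mouse Clariom S arrays. The authors used Affymetrix Expression Console and RMA, robust multi-array averaging (versions not given), per the submitters' processing notes, and the deposited signals are on a log2 scale. They were used without further transformation, and whether all arrays were normalised together is not given in the sources used here. Array number limits the precision.

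A linear model was fitted with limma 3.58.1 under R 4.3.3 (lmFit, eBayes with an intensity trend) to the 12 arrays of erythroblasts from mice, in 6 groups of 2, with 6 residual and 4.52 prior degrees of freedom. Tests were 2-sided, with the Benjamini-Hochberg adjustment over 19572 named probe sets, and adjusted p under 0.05 counted as passing. The 2 mice of a group give the only replication. Signal under the 95th percentile of an array's background probe sets counted as under background. Where both arrays of 1 group only lay there, a bound against that level is given. For genes with several probe sets the one with the highest mean carried the name. Of the listed genes 48 had no named probe set and were not used here.

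Named genes are the target, all that passed, up to 4 further genes per list with the widest differences, and a fixed panel. Others were picked after their values were seen, as were C1qa, Vcam1, Cd163, Siglec1, Smad4 and Diaph2 within the lists. The members and lists were chosen with earlier results of these data known. The fit was tested on simulated data. Other settings were subsets of arrays, scalings, weights, filters, a sex term and, chosen after seeing the data, the DWT mouse as a random block.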

Additional observations from a re-analysis of the deposited data

How the results depend on the processing

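The number of genes passing between DKO-IV and DWT-IV was 9. It was 0 with only the 4 stage IV arrays and 0 with the 8 arrays of stages II+III and IV, where fewer residual degrees of freedom remained. It was 60 without DKO-I replicate 2, 124 with all 20 arrays in 1 fit, 114 with array weights, 28 with dim probe sets left out, 5 after quantile normalization and 0 with sex as a covariate. The cause of these changes was not tested. Leaving out each stage IV array in turn gave 0 to 25. It was 8 with median centring, 6 without an intensity trend, 10 with robust eBayes and 9 with unnamed probe sets included. The share that was higher was 44.4%, but 20% after quantile normalization, 50% after median centring, 71.7% without DKO-I replicate 2 and 68.5% with all 20 arrays. The stage difference stayed at 0 genes in limma apart from 5 with all 20 arrays, and leaving out each stage IV array gave 0 to 0. All 9 genes kept their direction in the 17 settings, of which only the scalings and the sex term could have reversed it. Of the other genes, the difference reversed on leaving out single arrays for Mpo (-2.76 to 1.09), Kit (-5.46 to 0.83), Dmtn (-0.18 to 0.05) and Vpreb1 (-1.05 to 4.29), where a DKO-IV array was left out, and for Gata1 (-0.97 to 0.04), where a DWT-IV array was. It reversed for Dmtn (0.08) with sex as a covariate. Among the 2634 probe sets without a symbol 1 passed, lower in DKO-IV, and 159 had an unadjusted p under 0.05. No paired analysis was possible because the labels give no replicate numbers and the genotypes come from different mice. With 2 DWT mice, 1 male, sex ties the DWT arrays of the stages to a mouse. No label names the mouse of a DKO array, although titles are numbered in runs of stages I, II+III and IV. Eosinophil markers averaged 10.65, 12.19 and 8.63 in DKO replicate 1 at these stages, and 7.13, 8.51 and 6.88 in replicate 2. The main fit treats the 12 arrays as independent, and the blocked fit below does so for the DKO arrays. With the DWT mouse as a random block, chosen after seeing the data, 10 genes passed at stage IV, all 9 among them, and 0 in the stage difference (708 at an unadjusted p under 0.05), and the estimated correlation was 0.066. On leaving out each stage IV array in turn, list medians beside those in the report ranged from 0.31 to 0.81 for IL-6 and STAT3, 0.48 to 0.77 for NF-kB, 0.15 to 0.83 for monocytes and macrophages, -0.61 to -0.30 for terminal maturation, -0.31 to -0.22 for the red cell membrane, -0.30 to -0.05 for haem synthesis, -0.35 to -0.18 for erythroid regulators, 0.14 to 0.34 for p53, 0.05 to 0.17 for enucleation, -0.34 to -0.11 for G2 and mitosis, -0.30 to -0.10 for DNA replication, -0.20 to -0.08 for histones and -0.16 to -0.05 for antioxidants. The median changed sign for iron handling (-0.07 to 0.12). Of 10 listed globins and globin partners only 3 were measured, all under background in all 4 stage IV arrays. No direction is given for their median (-0.66 to -0.03). The 2 mice per group, 1 of them male among DWT, and signals under background in part of the arrays limit every value.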
